A study of Mus musculus with 8 samples.

Results

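The extracellular matrix of the heart is the scaffold of collagens, elastic fibres, glycoproteins and proteoglycans around the muscle cells, together with the enzymes and growth factors that build, crosslink and degrade it. A set of 39 mouse genes of this kind was examined in heart RNA: collagens of the fibrillar and network types, fibronectin and elastic fibre genes, lysyl oxidases, small leucine-rich proteoglycans, matricellular proteins, matrix metalloproteinases with their inhibitors, and the TGF-beta ligands. The members were found by NCBI Gene number from their symbols, and all 39 were listed among the 18215 gene numbers of the deposited tables.

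The 8 libraries were made from polyadenylated RNA of the heart. The 4 TG libraries came from mice carrying a Carns transgene, and the 4 WT libraries from mice without it. Carns1, carnosine synthase, joins beta-alanine and histidine into the dipeptide carnosine. Not given in the sources used here are the strain, age and sex of the mice, the promoter that drives the transgene and the number of founder lines. Whether each library stands for an animal of its own is not stated, and p-values therefore cover the spread among these libraries, which could be technical.

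Fibrillar collagens carry the tensile load of the tissue, and network collagens form the basement membranes around muscle cells and vessels. In the heart most fibrillar collagen comes from fibroblasts, and its amount is set by synthesis, crosslinking by lysyl oxidases and degradation by metalloproteinases. TGF-beta is the best known inducer of matrix genes in fibroblasts, and periostin, thrombospondins and SPARC are secreted regulators that rise when cardiac fibroblasts are activated by injury or load.

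Carns1 averaged 20812 ± 2454 counts per 1000000 (CPM) in the TG libraries and 62.6 ± 12.5 CPM in the WT libraries (SD, n = 4 each), which fits the labels. Counts per library totalled 6261161 to 7897598, and the detection floor of 3 counts corresponded to 0.380 to 0.479 CPM. No total lay between 6557591 and 7394115. The 4 libraries below this gap, called shallower here, were TG replicates 2 and 4 and WT replicates 3 and 4, and the 4 above it, called deeper, were TG replicates 1 and 3 and WT replicates 1 and 2. Myh6, the adult cardiac myosin heavy chain, stood between 22833 and 32263 CPM in the 8 libraries, so the labelled tissue was present in each. Markers of tissue outside the ventricular muscle were uneven. Summed over 4 atrial markers, the TG libraries held 74.0, 856, 61.3 and 216 CPM, against 198, 197, 147 and 260 CPM in the WT libraries. Nppa, natriuretic peptide A, carried most of the WT sums. The other 3 atrial markers (Myl7, Myl4 and Sln) summed to 7.83, 531, 4.59 and 125 CPM in the TG libraries, against 55.0, 6.82, 3.61 and 40.7 CPM in the WT libraries. The sum over 6 adipocyte markers was 5.22, 762, 2.09 and 45.01 CPM in TG hearts and 20.2, 3.27, 2.26 and 4.59 CPM in WT hearts. The sum over 5 cartilage and tendon markers was 20.6, 20.9, 16.7 and 80.1 CPM in TG hearts and 22.7, 12.4, 15.3 and 20.5 CPM in WT hearts. Chad made up most of the sum of TG replicate 4. Without it the other 4 markers of that list summed to 19.05, 14.1, 16.4 and 24.5 CPM in the TG libraries and to 14.4, 12.3, 15.3 and 16.2 CPM in the WT libraries. Sln, an atrial marker, was at 0 in TG replicate 3 and WT replicate 2, and Retn, an adipocyte marker, was at 0 in TG replicate 1 and WT replicates 3 and 4. In such bulk samples, fewer cells of a type and less RNA per cell cannot be told apart.

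Proximal promoters are shown for 3 members, picked after their values were seen. Col1a2 and Col3a1 encode major fibrillar collagen chains and were highest in replicate 4 of both groups. Fmod, a proteoglycan gene, stood high in TG replicate 4 alone. A link between these promoter windows and the levels was not tested. Each is the 250 bases before the annotated start on the plus strand of GRCm38.p6, from RefSeq, written 5′ to 3′. Capitals mark the motifs searched on both strands. They were CCAAT, which reads ATTGG on the opposite strand, the GC box GGGCGG, which reads CCGCCC there, and the TATA motif TATAAA, which reads TTTATA there.
Col1a2, chr6:4505368-4505617: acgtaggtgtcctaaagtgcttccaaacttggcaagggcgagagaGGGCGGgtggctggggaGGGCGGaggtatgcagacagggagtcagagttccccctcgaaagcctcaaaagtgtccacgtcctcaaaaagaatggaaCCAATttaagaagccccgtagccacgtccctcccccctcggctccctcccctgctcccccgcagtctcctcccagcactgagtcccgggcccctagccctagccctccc
Col3a1, chr1:45311288-45311537: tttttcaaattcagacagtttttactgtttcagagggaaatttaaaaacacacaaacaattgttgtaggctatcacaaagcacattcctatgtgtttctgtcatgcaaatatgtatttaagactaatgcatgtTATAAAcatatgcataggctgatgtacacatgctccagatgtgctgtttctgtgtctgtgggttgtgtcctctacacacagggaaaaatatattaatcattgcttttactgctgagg
Fmod, chr1:134037004-134037253: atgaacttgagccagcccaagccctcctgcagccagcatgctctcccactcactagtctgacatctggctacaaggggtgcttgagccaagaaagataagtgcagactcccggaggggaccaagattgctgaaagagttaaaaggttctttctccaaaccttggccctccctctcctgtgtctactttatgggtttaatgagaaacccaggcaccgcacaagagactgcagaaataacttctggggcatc

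The Col1a2 window holds 1 CCAAT, 109 bases before the start, and 2 GC boxes. The Col3a1 window holds 1 TATAAA and neither of the other motifs, and the Fmod window holds none of the 3. Promoters were on hand for 24 of the 39 members, in 26 windows of this length. CCAAT was found in 8 of the 26 (30.8%), against 33.8% of 32851 mouse promoter windows, the GC box in 14 (53.8%), against 32.7%, and TATAAA in 5 (19.2%), against 12.4%. A match describes the letters only, and says nothing of a bound factor.

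No member passed the test of a difference between the TG and the WT hearts. Of the 39 members 38 passed the filter on low counts and were tested, and none was called by the edgeR quasi-likelihood test at a Benjamini-Hochberg adjusted p under 0.05, where 2 of 12670 genes (0.0158%) were called. The smallest adjusted p of a member in that test was 0.99955. DESeq2 called no member either, against 15 of 12661 genes (0.118%). Without TG replicates 2 and 4, the TG libraries with the highest atrial and the highest adipocyte or cartilage sums, 0 members were called by edgeR as well. In that fit 2 of 13010 genes were called, and 14 of the 38 members had a positive fold change. At an unadjusted p under 0.05 in the edgeR test, 1 member (Mmp3) was counted, against 442 genes or 3.49% of all tested. On the CPM scale, the 4 TG values and the 4 WT values overlapped for each of the 38 members, while they did not overlap for 320 of all tested genes (2.53%). The member left untested was Cthrc1, a secreted protein of activated fibroblasts, at 0.21 ± 0.05 FPKM in TG and 0.33 ± 0.14 FPKM in WT (SD, n = 4 each), with 1 to 4 counts in a library. FPKM is the deposited value per kilobase of gene and per 1000000 fragments.

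The fitted log2 fold changes, TG over WT, were positive for 23 members and negative for 15. Their median was 0.05, against -0.00 over all tested genes, and they ran from -0.22 for Col8a1 to 1.03 for Comp. The 95% interval of the fold change lay within 1.5-fold in both directions for 26 of the 38 members and within 2-fold for 31, so that larger differences than these lay outside the intervals of those genes. In the other 7 (Comp, Fmod, Ltbp2, Mmp3, Postn, Thbs1 and Timp1) the interval reached beyond 2-fold.

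**Figure D1:**
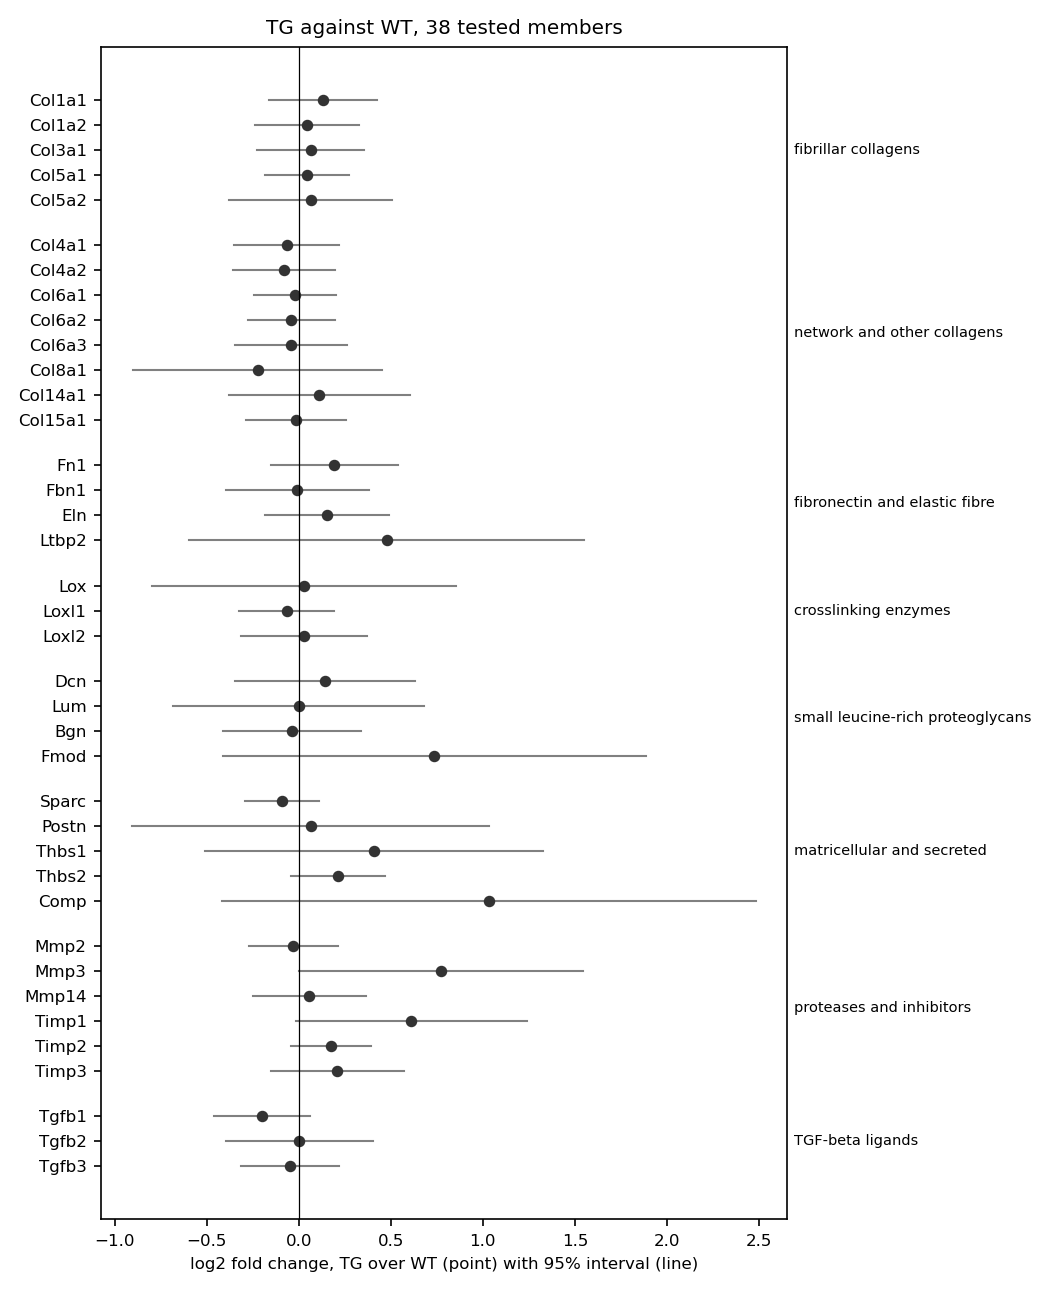
Log2 fold change, TG over WT, of the 38 tested members (points) with the 95% interval from the edgeR fit (lines), in groups by role. The points run from -0.22 (Col8a1) to 1.03 (Comp), and the lines of Comp, Fmod, Ltbp2, Postn and Thbs1 are the widest.

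The levels of the members covered a wide range. On the FPKM scale, averaged over the 8 libraries, Bgn stood at 327, Sparc at 281, Dcn at 235, Col4a1 at 132 and Col4a2 at 126, and the fibrillar Col3a1 and Col1a1 at 65.5 and 61.7. At the low end were Cthrc1 at 0.273, Lox at 1.30, Ltbp2 at 2.30, Mmp3 at 2.45 and Tgfb2 at 2.48 FPKM. The abundant end held proteoglycans, SPARC and basement membrane collagen above the fibrillar chains.

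**Figure D2:**
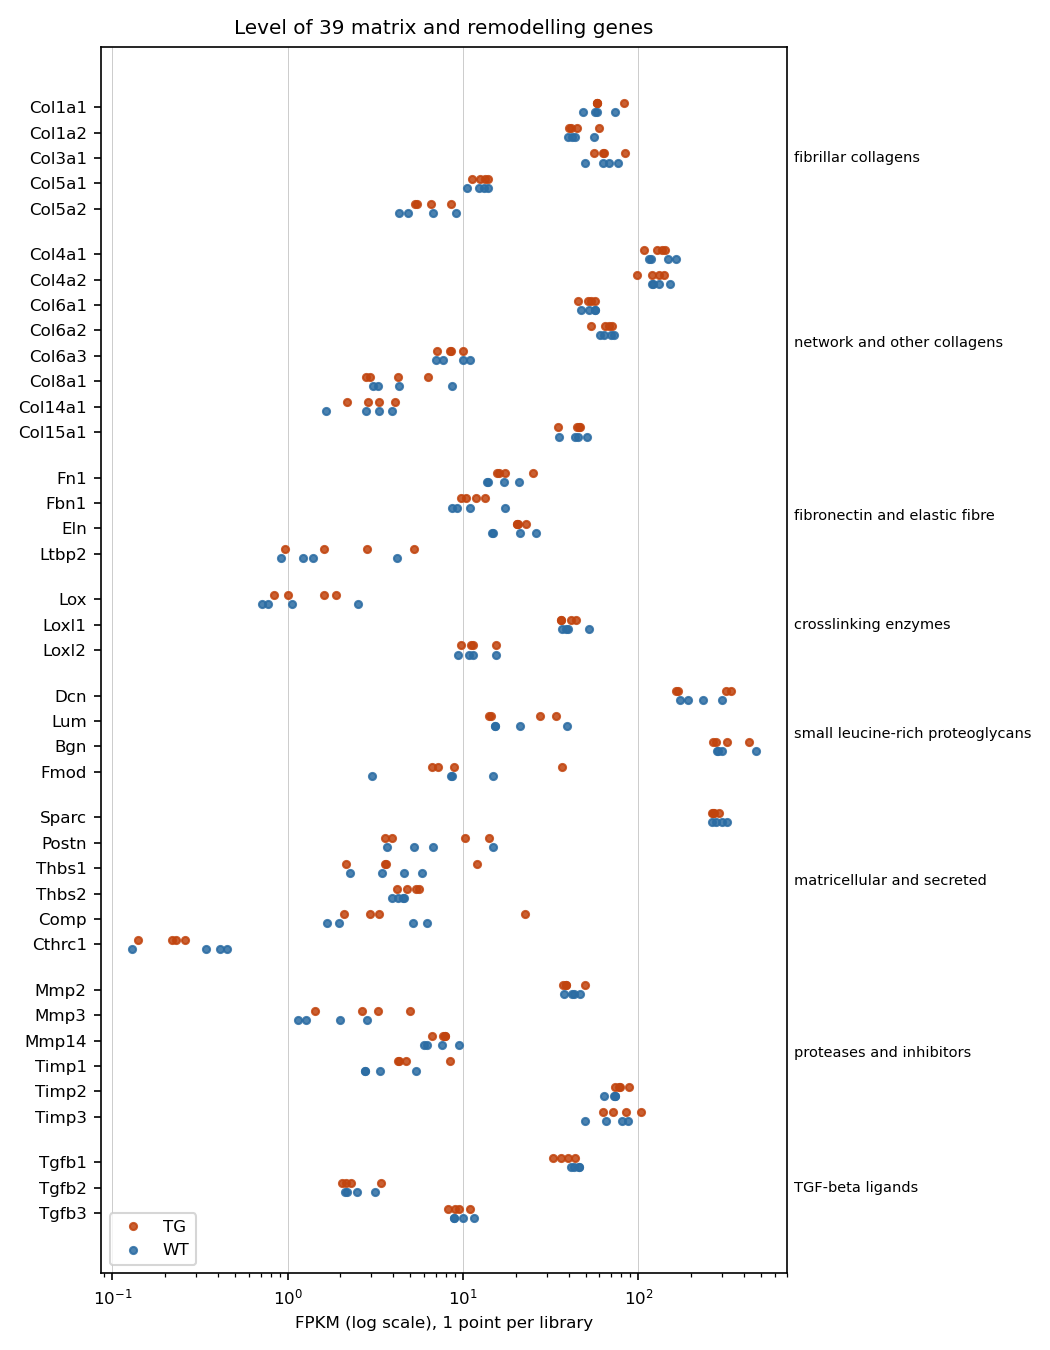
FPKM of the 39 members on a log axis, 1 point per library, TG above WT within each gene, in groups by role. The TG and WT points overlap in every gene but Timp2, and the mean over all libraries runs from 0.273 FPKM (Cthrc1) to 327 FPKM (Bgn).

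Type I and type III collagen are the main fibrillar collagens of the heart. Col1a1, the alpha-1 chain of type I, stood at 359, 350, 358 and 487 CPM in the TG libraries and at 342, 307, 348 and 424 CPM in the WT libraries. The highest value of each group was in its replicate 4, and the groups overlapped. This gave a log2 fold change of 0.13 (SE 0.14, 95% interval -0.16 to 0.42). Col3a1, which forms the thinner type III fibrils, had 326, 354, 369 and 462 CPM in TG hearts, against 354, 295, 381 and 414 CPM in WT hearts. Here the log2 fold change was 0.06 (SE 0.13). Replicate 4 was again the highest of both groups. The type I alpha-2 chain Col1a2 averaged 246 ± 40 CPM in TG hearts and 239 ± 30 CPM in WT hearts. Type V collagen nucleates type I fibrils, and its chain Col5a1 averaged 110 ± 9 CPM in TG hearts and 106 ± 9 CPM in WT hearts. The other type V chain, Col5a2, averaged 43.5 ± 8.8 CPM in TG hearts and 41.7 ± 13.0 CPM in WT hearts (SD, n = 4 each). All 5 fibrillar chains had a positive fold change, between 0.05 and 0.13 on the log2 scale, with intervals within 1.5-fold, and none passed the test.

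Among the network collagens, type IV is the core of basement membranes. Col4a1 had 947, 724, 978 and 838 CPM in TG hearts and 773, 830, 986 and 1062 CPM in WT hearts, with a log2 fold change of -0.07 (SE 0.13). TG replicate 2 was the lowest and WT replicate 4 the highest, and the groups overlapped. Col4a2 averaged 810 ± 132 CPM in TG hearts and 856 ± 74 CPM in WT hearts. The genes of this pair sit head to head on chromosome 8, with annotated starts 21 bases apart on opposite strands (GRCm38.p6), and how the counting treated strand was not given in the sources used here, so reads near the shared start could be assigned to either. Type VI collagen forms beaded filaments next to the basement membrane. Col6a1 averaged 211 ± 20 CPM in TG hearts and 214 ± 12 CPM in WT hearts, Col6a2 averaged 244 ± 29 CPM in TG hearts and 251 ± 14 CPM in WT hearts, and Col6a3 averaged 79.01 ± 10.1 CPM in TG hearts and 81.4 ± 14.3 CPM in WT hearts (SD, n = 4 each).

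Col8a1, a short-chain collagen of vessels and injured tissue, had the most negative fold change of the members. It stood at 15.7, 21.9, 14.9 and 31.9 CPM in TG hearts and at 16.9, 16.6, 22.1 and 42.9 CPM in WT hearts. The 2 highest of the 8 values were those of TG replicate 4 and WT replicate 4, and the log2 fold change was -0.22 (SE 0.31). Without WT replicate 4 it was 0.18. Col14a1, which binds to fibril surfaces, averaged 20.5 ± 4.8 CPM in TG hearts and 19.0 ± 5.7 CPM in WT hearts, and the basement membrane zone collagen Col15a1 averaged 233 ± 32 CPM in TG hearts and 236 ± 28 CPM in WT hearts. Of these 8 collagens 7 had a negative fold change and 1 a positive one, with a median of -0.04, and none passed the test.

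Fibronectin is the adhesive glycoprotein on which other matrix is assembled. Fn1 had 145, 125, 133 and 198 CPM in TG hearts and 137, 116, 110 and 162 CPM in WT hearts, and the groups overlapped. Fn1 had a log2 fold change of 0.19 (SE 0.16). Eln, which encodes tropoelastin, the monomer of elastic fibres, had 81.7, 79.5, 82.0 and 87.5 CPM in TG hearts and 57.1, 61.0, 81.4 and 98.3 CPM in WT hearts. The TG values were close together, and the WT values fell on both sides of them: the WT deeper libraries were lower than any TG library and the shallower ones were not. Its log2 fold change was 0.15 over all libraries and -0.10 within the shallower ones. Within the deeper ones, 2 TG and 2 WT libraries, it was 0.47 (edgeR, Benjamini-Hochberg adjusted p = 0.084). That fit called 59 genes, against 2 over all libraries. Fbn1, the fibrillin of microfibrils, averaged 115 ± 15 CPM in TG hearts and 115 ± 36 CPM in WT hearts. Ltbp2, a microfibril-associated relative of the TGF-beta binding proteins, averaged 17.8 ± 12.2 CPM in TG hearts and 12.8 ± 9.6 CPM in WT hearts (SD, n = 4 each).

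The lysyl oxidases crosslink collagen and elastin. Loxl1, which acts mainly on elastin, was the most abundant of the 3 per length, at 40.6 FPKM over all libraries, with 144, 121, 126 and 144 CPM in TG hearts and 125, 140, 128 and 168 CPM in WT hearts. Its log2 fold change was -0.07 (SE 0.12), and the groups overlapped. Loxl2 averaged 63.0 ± 12.0 CPM in TG hearts and 61.7 ± 11.6 CPM in WT hearts. Lox itself was scarce, at 1.30 FPKM over all libraries, or 6.10 ± 2.14 CPM in TG hearts and 6.01 ± 3.98 CPM in WT hearts (SD, n = 4 each).

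The small leucine-rich proteoglycans bind collagen fibrils and set their diameter. Biglycan, Bgn, which also binds TGF-beta, was the most abundant on the FPKM scale, with 801, 668, 668 and 1010 CPM in TG hearts and 698, 769, 672 and 1089 CPM in WT hearts. Bgn had a log2 fold change of -0.04 (SE 0.17). Replicate 4 was the highest library of both groups. Decorin, Dcn, had 319, 586, 324 and 621 CPM in TG hearts and 324, 379, 431 and 540 CPM in WT hearts. In both groups the shallower libraries held the higher values, and the log2 fold change was 0.14 (SE 0.23). Lumican, Lum, showed the same order, with 30.1, 57.0, 31.0 and 68.9 CPM in TG hearts and 31.9, 33.3, 43.2 and 78.7 CPM in WT hearts, and a log2 fold change of -0.00 (SE 0.31).

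Fibromodulin, Fmod, a proteoglycan abundant in tendon and cartilage, had 21.4, 25.5, 19.7 and 104 CPM in TG hearts and 43.0, 25.9, 8.57 and 23.8 CPM in WT hearts. A single library, TG replicate 4, stood above the others. Its log2 fold change was 0.74 (SE 0.53, 95% interval -0.41 to 1.89), and without TG replicate 4 it was -0.20. Within the deeper libraries it was -0.75 and within the shallower ones 2.00.

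Among the secreted matricellular proteins, Sparc, which binds collagen and is needed for its processing, was the most abundant on the FPKM scale. It had 717, 702, 738 and 744 CPM in TG hearts and 742, 738, 790 and 819 CPM in WT hearts, a log2 fold change of -0.09 (SE 0.09). The groups overlapped at 738 to 744 CPM. Thbs2, thrombospondin 2, had the smallest p of this group, with 26.1, 32.0, 29.5 and 33.0 CPM in TG hearts and 25.6, 24.7, 27.1 and 26.4 CPM in WT hearts. In Thbs2, 3 of the 4 TG libraries lay above the WT values, and TG replicate 1 lay among them. Its log2 fold change was 0.21 (SE 0.12, 95% interval -0.04 to 0.47), with an unadjusted p of 0.0925 and a Benjamini-Hochberg adjusted p of 0.99955 in the edgeR test.

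Periostin, Postn, a marker of activated cardiac fibroblasts, had 12.8, 32.4, 11.7 and 44.4 CPM in TG hearts and 16.9, 12.3, 21.2 and 46.3 CPM in WT hearts. The 4 shallower libraries held the 4 highest values, 2 from each group, and the log2 fold change was 0.07 (SE 0.45). Thbs1, thrombospondin 1, an activator of latent TGF-beta, had 22.3, 21.1, 13.2 and 69.7 CPM in TG hearts and 20.7, 14.2, 26.9 and 33.3 CPM in WT hearts. The log2 fold change was 0.41 (SE 0.42), and without TG replicate 4, which held the highest value, it was -0.33. Comp, cartilage oligomeric matrix protein, had 7.44, 8.09, 5.28 and 54.4 CPM in TG hearts and 12.8, 5.05, 4.06 and 14.7 CPM in WT hearts. It had the most positive fold change of the members, 1.03 on the log2 scale (SE 0.67, 95% interval -0.42 to 2.48), and without TG replicate 4 it was -0.40. Within the deeper libraries the log2 fold change of Comp was -0.49 and within the shallower ones 1.75. Chad, chondroadherin, a cartilage marker, stood at 55.6 CPM in TG replicate 4 and at 8.24 CPM or less in the other 7 libraries, beside the values of Comp and Fmod in that library. Of the other markers on the cartilage and tendon list, Sox9, a cartilage transcription factor, was also highest in TG replicate 4, at 16.3 CPM against 5.46 to 9.39 CPM in the others. Scx, a tendon transcription factor, stood at 5.94 CPM there, the second lowest of the 8 values, and Tnmd, a tendon marker, was at 0 in 5 of the 8 libraries and at most 0.764 CPM. The part of that tissue in the values of Comp, Fmod and Thbs1 was not tested.

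**Figure D3:**
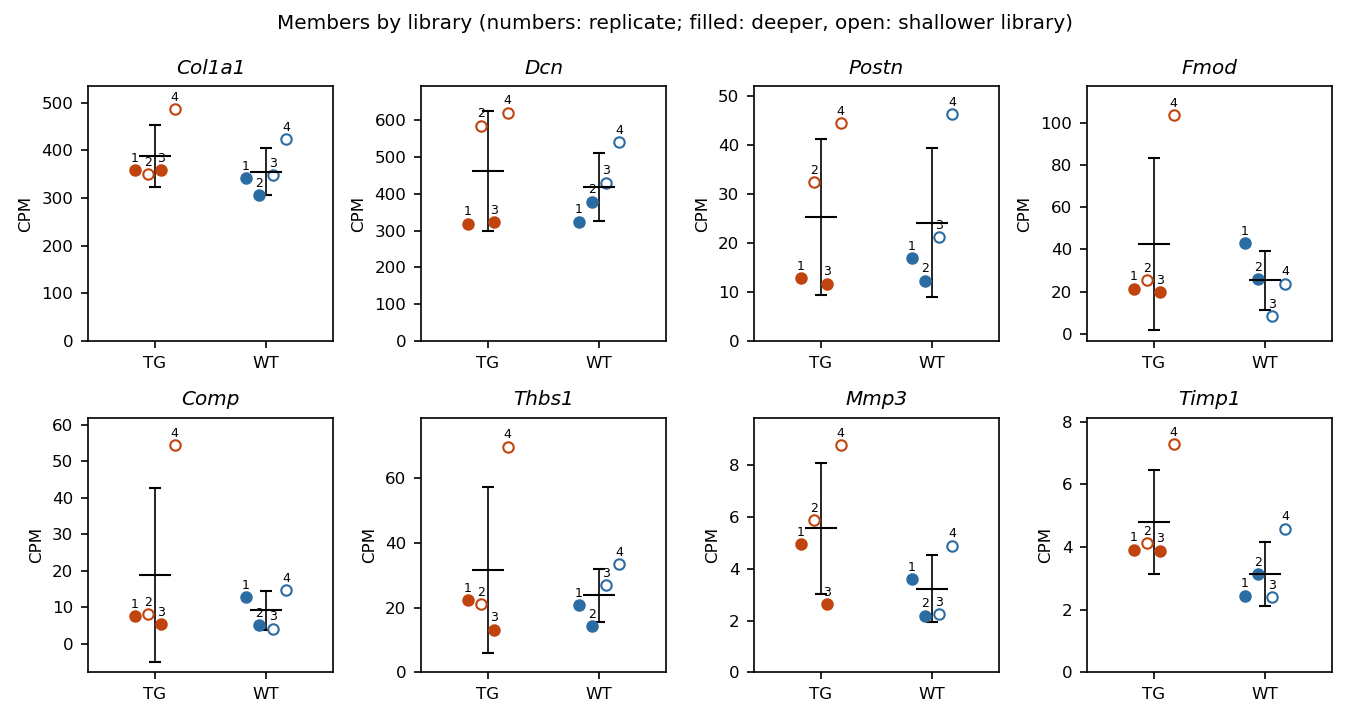
CPM of 8 members, 1 point per library with its replicate number, filled for the deeper and open for the shallower libraries, with the mean (wide bar) and SD (n = 4). TG replicate 4 stands apart for Fmod (104 CPM), Comp (54.4 CPM) and Thbs1 (69.7 CPM), and replicate 4 is the highest library of both groups for Col1a1, Dcn, Postn, Mmp3 and Timp1.

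Matrix metalloproteinases cut matrix proteins and the TIMPs inhibit them. Stromelysin-1, Mmp3, was the member with the smallest p. It had 4.96, 5.87, 2.64 and 8.76 CPM in TG hearts and 3.61, 2.18, 2.26 and 4.89 CPM in WT hearts. Of the TG libraries 3 lay above the 4 WT libraries, and TG replicate 3 lay among them. The log2 fold change was 0.77 (SE 0.36, 95% interval 0.00 to 1.55). In the edgeR test its unadjusted p was 0.0491 and its Benjamini-Hochberg adjusted p 0.99955, so Mmp3 did not pass. Within the deeper libraries its log2 fold change was 0.39, and within the shallower ones 1.04. Timp1, an inhibitor induced in injured and inflamed tissue, had 3.91, 4.12, 3.89 and 7.28 CPM in TG hearts and 2.45, 3.14, 2.41 and 4.59 CPM in WT hearts. WT replicate 4 lay above 3 of the TG libraries, and the other WT libraries lay below all 4. The log2 fold change of Timp1 was 0.61 (SE 0.29, 95% interval -0.02 to 1.24), and it was 0.34 without TG replicate 4 and 0.84 without WT replicate 4. The difference had the same sign within the deeper libraries (0.48) and within the shallower ones (0.71). Timp1 overlaps Syn1 in the annotation, which stood at 0.471 FPKM.

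The abundant inhibitors were Timp3 and Timp2, at 75.7 and 75.3 FPKM over all libraries, against 4.499 FPKM for Timp1. Timp3, which is bound to the matrix, had 308, 402, 349 and 480 CPM in TG hearts and 310, 247, 408 and 366 CPM in WT hearts, a log2 fold change of 0.21 (SE 0.17). Timp2, which also takes part in the activation of pro-MMP2, averaged 294 ± 17 CPM in TG hearts and 261 ± 22 CPM in WT hearts (SD, n = 4 each). In CPM the groups overlapped, at 293, 286, 280 and 318 CPM in TG hearts and 270, 283, 231 and 258 CPM in WT hearts, while in the deposited FPKM they did not, at 77.4, 78.4, 74.0 and 88.8 FPKM in TG hearts and 73.4, 73.5, 63.8 and 73.0 FPKM in WT hearts. The fitted log2 fold change of Timp2 was 0.18 (SE 0.10). The gelatinase Mmp2 averaged 128 ± 15 CPM in TG hearts and 131 ± 10 CPM in WT hearts, and Mmp14, the membrane protease that activates it, averaged 29.1 ± 1.8 CPM in TG hearts and 28.0 ± 5.2 CPM in WT hearts. All 3 TIMPs had positive fold changes, between 0.18 and 0.61, and none passed the test. Timp2 and Timp3 overlap Cep295nl and Syn3 in the annotation, both at 0.22 FPKM or less.

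The 3 TGF-beta ligands signal through the same receptors. Tgfb1, the most abundant of them on the FPKM scale, had 98.4, 71.5, 90.2 and 77.2 CPM in TG hearts and 94.4, 106, 99.9 and 86.7 CPM in WT hearts. The 2 lowest of the 8 values were those of the shallower TG libraries, and the groups overlapped. Tgfb1 had a log2 fold change of -0.20 (SE 0.12, 95% interval -0.46 to 0.06). Tgfb2 averaged 12.9 ± 2.9 CPM in TG hearts and 12.8 ± 2.1 CPM in WT hearts, and Tgfb3 averaged 32.5 ± 3.2 CPM in TG hearts and 33.7 ± 3.2 CPM in WT hearts (SD, n = 4 each).

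Ratios between members compare genes within a library and so do not depend on its total. For 6 pairs chosen after their values were seen, the ratio of FPKM values was compared by an exact two-sided permutation test, whose smallest possible p with 4 against 4 is 0.0286, and Benjamini-Hochberg adjustment over the 6 ratios left none past 0.05. Col1a1 to Col1a2, the chains of type I collagen, was 1.38 ± 0.05 in TG hearts and 1.30 ± 0.05 in WT hearts. Col4a1 to Col4a2 was 1.05 ± 0.04 in TG hearts and 1.04 ± 0.09 in WT hearts, Col6a1 to Col6a2 was 0.810 ± 0.023 in TG hearts and 0.798 ± 0.017 in WT hearts, and Col1a1 to Col3a1 was 0.963 ± 0.057 in TG hearts and 0.922 ± 0.054 in WT hearts (SD, n = 4 each). Mmp2 to Timp2 was 0.502, 0.474, 0.522 and 0.559 in TG and 0.587, 0.566, 0.592 and 0.633 in WT. It was the only one of the 6 ratios whose TG and WT values did not overlap, with the difference of means at -0.08 over all libraries, -0.06 within the deeper ones and -0.10 within the shallower ones. Its exact permutation p was 0.0286 and its Benjamini-Hochberg adjusted p 0.171, and since the pair was chosen with its values known, that p is not independent evidence. The adjusted exact permutation p of the other 5 ratios lay between 0.343 and 0.686. Tgfb1 to Tgfb3 was 4.11 ± 0.94 in TG hearts and 4.54 ± 0.70 in WT hearts.

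Most tested members had their highest value in a replicate 4. For 34 of the 38 tested members the highest of the 8 libraries was TG replicate 4 (18 members) or WT replicate 4 (16 members), whereas those libraries were the highest for 26.0% of all tested genes. Neither was the lowest for any of these members. The median deviation of the members from their mean over the 8 libraries, on the log2 scale, was -0.06, -0.07, -0.04 and 0.36 in TG replicates 1 to 4, and -0.12, -0.23, -0.05 and 0.28 in WT replicates 1 to 4. Together the members took 0.692%, 0.676%, 0.697% and 0.869% of the counts in TG, and 0.674%, 0.637%, 0.731% and 0.892% in WT. The library with the highest share in each group was thus a replicate 4, and the spread within a group was larger than the difference between the groups. The labels name nothing that TG replicate 4 and WT replicate 4 share, and the genes of a library are not independent of each other.

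**Figure D4:**
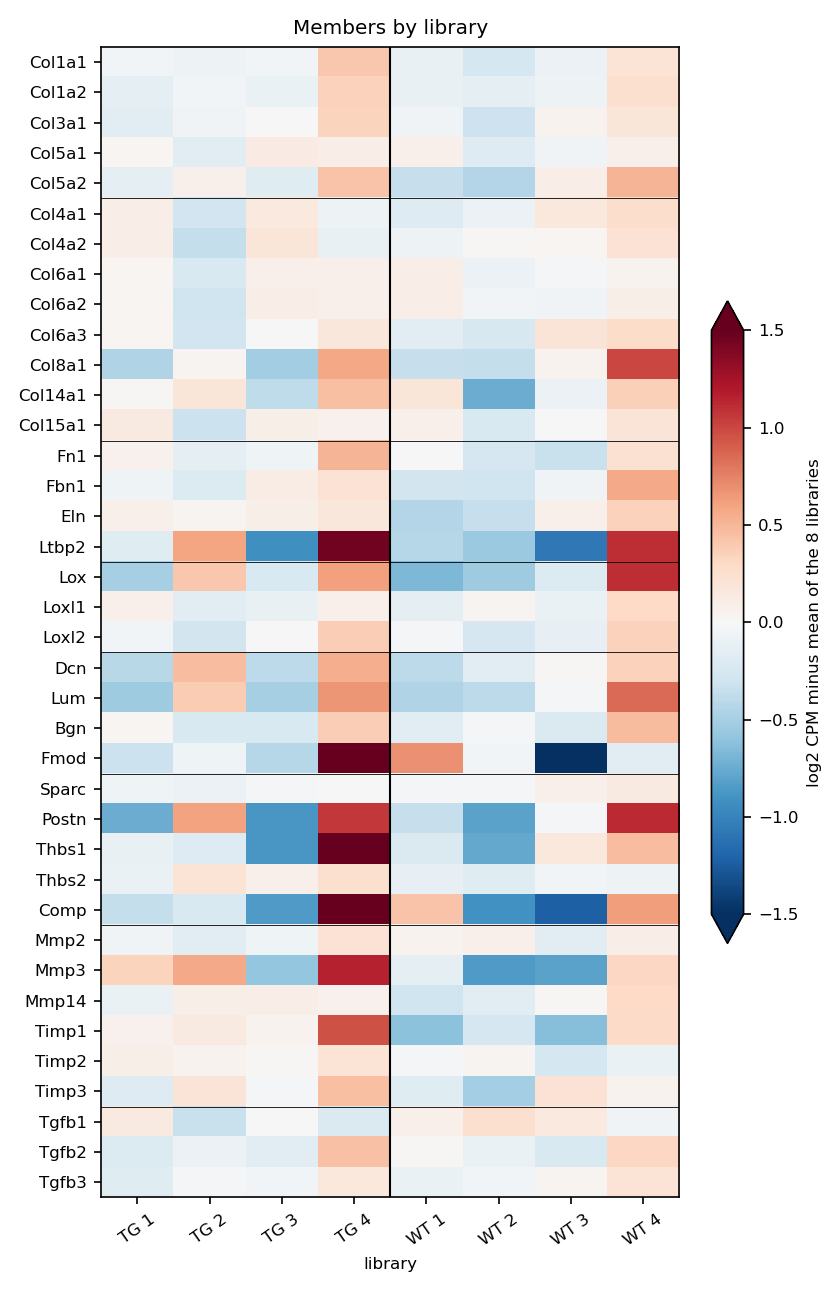
Log2 CPM of the 38 tested members minus their mean over the 8 libraries (colour, saturated at 1.5), with members in rows by role and libraries in columns. The columns of TG replicate 4 and WT replicate 4 are the reddest, with median deviations of 0.36 and 0.28.

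Fibroblasts make most of the fibrillar matrix, and their markers were read beside the members. Summed over 9 fibroblast markers, the TG libraries held 3045, 2797, 2881 and 3263 CPM and the WT libraries 2894, 2912, 2559 and 2732 CPM, and 8 of the 9 had their highest value in a replicate 4. Gsn, gelsolin, at 1748 to 2359 CPM, made up most of that sum. Pdgfra, the receptor that defines cardiac fibroblasts, stood at 36.3, 47.9, 40.2 and 57.5 CPM in TG hearts and at 34.9, 27.8, 46.9 and 56.1 CPM in WT hearts, with replicate 4 the highest of both groups. Tcf21, a fibroblast transcription factor, lay between 9.87 and 12.4 CPM in all 8 libraries. A replicate 4 was also the highest library for 4 of 5 activated fibroblast markers, 5 of 7 macrophage markers, 5 of 8 endothelial markers, 2 of 8 mural markers and 2 of 8 cardiomyocyte markers. Acta2, smooth muscle actin, which activated fibroblasts and vessel walls share, stood at 398, 314, 353 and 380 CPM in TG hearts and at 314, 311, 320 and 750 CPM in WT hearts. Cilp, a secreted matrix protein of activated fibroblasts, stood at 30.4, 34.4, 17.4 and 62.4 CPM in TG hearts and at 18.0, 20.1, 14.9 and 73.4 CPM in WT hearts, again with replicate 4 the highest. The part of the cell makeup in the members' levels was not tested. Lrrc15, a membrane protein of activated fibroblasts and no member, was apart from Carns1 the only gene called. It fell to 8.87, 9.68, 12.1 and 8.32 CPM in TG hearts, against 28.7, 28.1, 20.6 and 19.7 CPM in WT hearts, a log2 fold change of -1.32 (SE 0.18, edgeR, Benjamini-Hochberg adjusted p = 0.0349). With each library left out in turn it was called in 2 of 8 fits, namely when TG replicate 3 or WT replicate 4 was absent, and its adjusted edgeR p ran from 0.0278 to 0.189.

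The shallower libraries were compared with the deeper ones as well. In 9 of the 38 (Col1a2, Col5a2, Col8a1, Lox, Dcn, Lum, Postn, Timp3 and Tgfb3) all 4 shallower libraries lay above all 4 deeper ones, against 16.0% of all tested genes, and in 0 members all 4 lay below, against 13.9%. The first share, 23.7%, was above that of all genes and the second was below it, and neither difference was tested. TG replicate 2 and WT replicate 3, both shallower, were the lowest library for 12 and 7 of the members, beside 9 for WT replicate 2, a deeper one. The median difference, shallower minus deeper, was 0.22 on the log2 scale for the members, against -0.003 over all tested genes. Postn had the largest such difference, 1.38 on the log2 scale, with 21.2 to 46.3 CPM in the shallower libraries and 11.7 to 16.9 CPM in the deeper ones. The mean GC content of the members ran from 41.9% for Lum to 62.5% for Tgfb1, with a median of 53.6%, against 50.7% over all tested genes. Across the 38 members the Spearman correlation between GC content and the difference was -0.60, and across 12557 of the 12670 tested genes it was -0.71. The points share the same 8 libraries and genes are not independent replicates, so the correlations are descriptions. Each depth class holds 2 libraries of each group, and the median log2 fold change of the members was 0.04 in the deeper ones alone and 0.00 in the shallower ones alone.

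**Figure D5:**
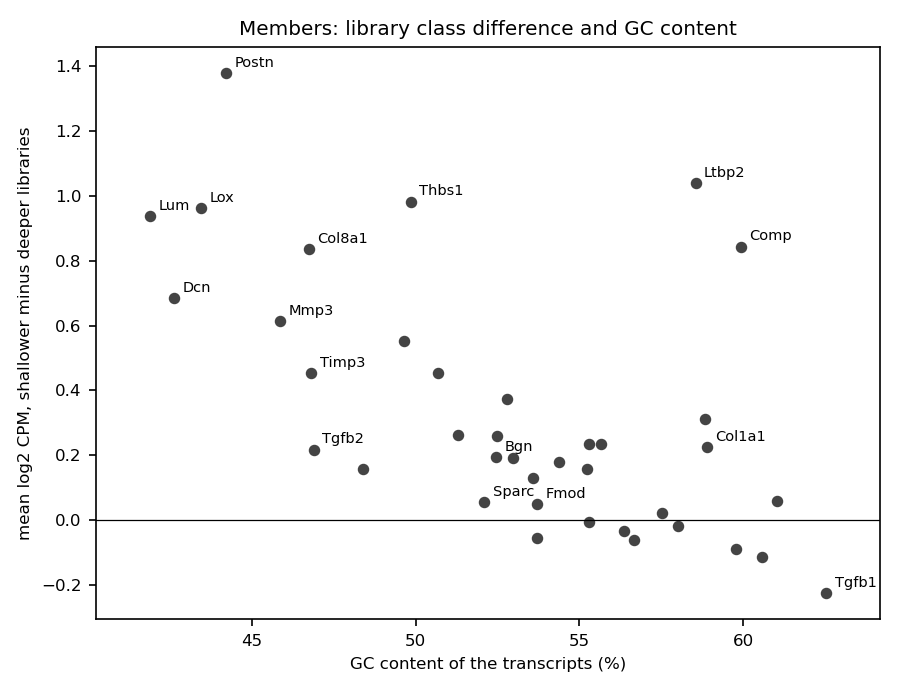
Difference in mean log2 CPM between the 4 shallower and the 4 deeper libraries against the GC content of the transcripts, 1 point per tested member. Postn (1.38) and Lum, Lox and Dcn stand at the low GC end, and Tgfb1, at 62.5% GC, has a negative difference.

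Matrix genes outside the set were read in the same fit. Of 195 other matrix genes listed in the tables, 159 were tested, and none was called by edgeR at a Benjamini-Hochberg adjusted p under 0.05 or by DESeq2. Their log2 fold changes were positive for 80 and negative for 79, with a median of 0.00, and 8 had an unadjusted edgeR p under 0.05, 6 with higher and 2 with lower values in TG, against the 3.49% of all tested genes. Ddr1, a receptor tyrosine kinase for collagen, had 54.0, 44.9, 53.0 and 50.2 CPM in TG hearts and 43.7, 40.5, 31.6 and 40.0 CPM in WT hearts, without overlap, at a log2 fold change of 0.37 (SE 0.13). Dag1, dystroglycan, the laminin receptor of muscle, had 822, 683, 868 and 730 CPM in TG hearts and 657, 659, 629 and 626 CPM in WT hearts, also without overlap, at 0.27 (SE 0.10). The protease Mmp19 was the last of the 3 in 159 without overlap, with 10.4 ± 0.4 CPM in TG hearts and 8.71 ± 0.78 CPM in WT hearts (SD, n = 4 each). Over all tested genes, the groups did not overlap for 320 of 12670 (2.53%). Smoc1, a SPARC-related calcium-binding protein, had a log2 fold change of 0.44 (SE 0.17).

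On the negative side, Smoc2, a SPARC-related protein of fibroblasts, had 104, 85.2, 102 and 95.1 CPM in TG hearts and 128, 113, 103 and 140 CPM in WT hearts, at a log2 fold change of -0.32 (SE 0.12). Lrrc32, the surface anchor of latent TGF-beta, stood at -0.32 (SE 0.13), the proteoglycan Omd at -0.40 (SE 0.19) and the laminin chain Lamb3 at -0.47 (SE 0.23). These genes are named for the smallest p in each direction, and none passed the adjusted test. The most abundant genes of the lists include Dag1, given above as without overlap. On the FPKM scale Mgp, an inhibitor of calcification, averaged 465 ± 126 in TG hearts and 403 ± 62 in WT hearts. The collagen chaperone Serpinh1 averaged 277 ± 34 in TG hearts and 247 ± 46 in WT hearts. Ltbp4 averaged 189 ± 24 in TG hearts and 201 ± 16 in WT hearts. The TGF-beta co-receptor Eng averaged 180 ± 22 in TG hearts and 189 ± 20 in WT hearts. The basement membrane proteoglycan Hspg2 averaged 81.4 ± 15.2 in TG hearts and 85.5 ± 7.8 in WT hearts (SD, n = 4 each). Prelp averaged 69.4 ± 33.5 in TG hearts and 55.2 ± 9.9 in WT hearts, Mmp15 57.6 ± 7.6 in TG hearts and 62.4 ± 6.6 in WT hearts, and Col18a1 6.63 ± 1.2 in TG hearts and 6.07 ± 0.92 in WT hearts. Replicate 4 of either group was the highest library for 83 of the 159 other matrix genes (52.2%), beside 89.5% of the tested members.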

How the data were processed

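Polyadenylated heart RNA was sequenced in 4 TG and 4 WT libraries, grouped by sample title. Each deposited table gives, per the file headers, an expected count and an FPKM value by NCBI Gene number, with a transcript length. Expected counts are the authors' estimated reads per gene, not normalized, of which 79.0% to 79.8% were whole in a library, and FPKM is the authors' value per kilobase and per 1000000 fragments. The submitters' processing notes list Bowtie2 and the build mm8 without role or version; the counting program was not given in the sources used here. Of 18215 gene numbers 18174 had a symbol in the RefSeq gene table of GRCm38.p6, which was used for names, promoters and gene starts only. A gene missing from a library's table was taken as 0 there.

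Expected counts were rounded and tested in R 4.3.3 with edgeR 4.0.16: filterByExpr (minimum count 10, minimum total 15), TMM scaling, the quasi-likelihood F-test on group alone, two-sided, and Benjamini-Hochberg adjustment over 12670 genes with a threshold of 0.05. CPM values use TMM-scaled library sizes, fold changes are TG over WT on the log2 scale, and the code was tested on simulated data. The detection floor of 3 counts covers counting error only. GC content is the mean over GENCODE transcripts matched by RefSeq accession. Alternatives were DESeq2 1.42.0, RLE scaling, other filters, limma 3.58.1 on log2(FPKM + 1) and log2(FPKM + 0.1), a replicate block, the depth class, and libraries left out. No pair of libraries of the same group agreed within sampling noise (smallest chi-square per degree of freedom 4.45).

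The members, the role lists, the other matrix lists, the markers, the depth classes and the tests were chosen with earlier results of these data known. Library values are given for the member of each role with the smallest p and the one with the highest FPKM. Comp, Dcn, Lum, Postn, Thbs1 and Timp1, the markers given by name, the 6 ratios and the printed promoters were chosen after their values were seen. Of the other matrix genes, the 4 with the smallest p in each direction and the most abundant of each list are named, except 1 that is not reported here, and Mmp19 for its groups without overlap. Member genes that overlap another gene in the annotation (6 of 39: Col4a1, Col4a2, Ltbp2, Timp1, Timp2 and Timp3) are uncertain where strand was not used.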

Additional observations from a re-analysis of the deposited data

Results flagged for a closer look

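Among 78 sets of 4 libraries, 1 for each member and group, 11 held a library whose gap to the nearest other value exceeded Dixon's 95% critical value for 4 samples. For normal and independent values about 1 in 20 such sets would be flagged. The CPM values were not on the log scale and the sets share the same 8 libraries, so the 11 cannot be compared with that rate. The CPM values below are those of the library that stands apart.

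TG replicate 4 was the highest of its group for 6 of the 11. Col1a1 stood there at 486.625 CPM, against 359 CPM in the next TG library. Fmod stood at 103.534, Thbs1 at 69.666, Comp at 54.366, Timp1 at 7.279 and Tgfb2 at 17.231 CPM. That library also held the highest sum of the cartilage and tendon markers, 80.1 CPM, of which Chad made up 55.6 CPM. Scx, on the same list, was at 5.94 CPM there, second lowest of the 8 libraries.

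WT replicate 4 was the highest of its group for 3. Col1a2 stood there at 283.359, Ltbp2 at 27.052 and Lox at 11.921 CPM. The other 2 sets had a low library: Col15a1 at 186.406 CPM in TG replicate 2, the library with the highest adipocyte and atrial marker sums, and Mmp2 at 115.508 CPM in WT replicate 3. The part of other tissue in these values was not tested.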

How the results depend on the processing

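No member and no other matrix gene was called by edgeR, DESeq2 or limma under any of the 20 other settings, and the smallest Benjamini-Hochberg adjusted edgeR p of a member was 0.084, for Eln in the deeper libraries only. The median log2 fold change of the members ran from -0.07 (without TG replicate 4, with 10 members positive) to 0.18 (without WT replicate 4, with 32 positive). Over all genes, the count of 2 calls became 15 with DESeq2, 4 with no filter on low counts, 1 with limma on FPKM values at a pseudocount of 1 or of 0.1, 28 with the depth class as a covariate, 59 in the deeper and 4 in the shallower libraries only, 0 without the Carns1 reads, and 1 to 3 with a library left out. The causes were not tested.

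With the replicate number as a block 1 gene was called, and no member. Same-numbered libraries deviated from their group means with correlations of 0.236, -0.283, -0.183 and 0.402 for numbers 1 to 4. Differently numbered TG and WT libraries ran from -0.437 to 0.461. All pairs of a TG and a WT library within a depth class were positive, from 0.198 to 0.461. All pairs across the depth classes were negative, from -0.437 to -0.183. Whether the numbers pair any of the samples is not settled by these correlations.

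The sign of the fold change turned for 15 of the 38 members in the deeper libraries only, for 8 in the shallower libraries only and for 19 without TG replicates 2 and 4. Among the named genes and the ratios that turned, in the deeper libraries only, the log2 fold change was 0.0024 for Bgn, 0.26 for Col4a1, -0.49 for Comp, -0.13 for Dcn, -0.75 for Fmod, 0.029 for Loxl1 and -0.25 for Postn. In the shallower libraries only it was -0.10 for Eln and 0.050 for Lum, and the difference of the Col4a1 to Col4a2 ratio was -0.027. Without TG replicates 2 and 4, a setting chosen after seeing the data, it was -0.054 for Col3a1, 0.079 for Col4a1, -0.52 for Comp, -0.38 for Dcn, -0.31 for Fmod, -0.97 for Postn, -0.41 for Thbs1 and -0.017 for Timp3, and the ratio differences were -0.0098 for Col4a1 to Col4a2, -0.0011 for Col6a1 to Col6a2 and 0.32 for Tgfb1 to Tgfb3. Lum, at -0.00, was 0.0038 with RLE scaling, 0.0037 with DESeq2 and with the block, 0.0034 at a mean of at least 5 CPM and 0.0015 without the Carns1 reads. With 1 library left out, the log2 fold change ran from -0.18 to 0.14 for Bgn, -0.046 to 0.14 for Col3a1, -0.13 to 0.015 for Col4a1, -0.49 to 0.18 for Col8a1, -0.40 to 1.34 for Comp, -0.031 to 0.29 for Dcn, -0.20 to 1.13 for Fmod, -0.12 to 0.033 for Loxl1, -0.25 to 0.37 for Lum, -0.36 to 0.59 for Postn and -0.33 to 0.67 for Thbs1, and the difference of the Col4a1 to Col4a2 ratio from -0.0081 to 0.051. At this depth, Cthrc1, at 1 to 4 counts a library, could not be compared.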

Other observations

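Markers of cells other than fibroblasts were read in the same fit, and none was called by edgeR at a Benjamini-Hochberg adjusted p under 0.05. All 7 macrophage markers had a negative log2 fold change, TG over WT, with a median of -0.32. Of these, 2 (Csf1r and C1qc) had an unadjusted edgeR p under 0.05, against 3.49% of all tested genes. Csf1r, the receptor of the macrophage growth factor, stood at 95.9, 83.3, 67.1 and 92.7 CPM in TG hearts, against 106, 119, 89.2 and 122 CPM in WT hearts, and the groups overlapped. All 6 mesothelial markers also had a negative log2 fold change, with a median of -0.11, from -0.42 for Wt1 to -0.01 for Upk1b (SE 0.42). Over all tested genes, 6393 of 12670 had a negative fold change. Wt1, a transcription factor of the epicardium, stood at 7.18, 8.09, 7.37 and 7.72 CPM in TG hearts, against 10.6, 8.46, 9.63 and 11.9 CPM in WT hearts, without overlap. Over all tested genes, 2.53% were without overlap. On the positive side, 3 of the 4 atrial markers (Myl7, Myl4 and Sln) had an unadjusted edgeR p under 0.05. So had Car3, the 1 adipocyte marker tested, and each of these genes was highest in TG replicate 2. Nppa, the other atrial marker, was also highest there but had a log2 fold change of -0.38 (SE 0.44). In TG replicates 1, 3 and 4 Nppa stood at 66.2, 56.7 and 90.2 CPM, against 143 to 219 CPM in WT hearts.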
